A study of Mus musculus with 4 samples.

Results

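The genes described here are 8 genes of the cell cortex, cell shape and membrane scaffolds that were named by symbol: Pdpn, Rtkn2, Akap5, Akap2, Ahnak, Lmo7, Limch1 and Clic5. All 8 were listed in each of the 4 libraries, out of 11242 genes listed in all 4. The libraries held sorted cells of mouse lung from animals with Sftpc-CreER, a Rosa26-Zsgreen reporter and Hopx-RFP on a mixed FVB/C57BL6 background, all treated with tamoxifen. Alveolar type I (AT1) cells were taken at postnatal day 3 (P3), P15 and P60 as RFP+, Pdpn+, GFP- and CD45- cells. Alveolar type II (AT2) cells were taken at P60 as GFP+ and CD45- cells, without a Pdpn gate. The Cre is driven by the Sftpc promoter, so GFP marks cells that expressed this surfactant gene at labelling or that descend from them. Both digestions used neutral protease and DNase I, and that for AT1 cells also elastase and type I collagenase. Each group was 1 library and the number of animals behind it is not given in the labels, so age, library and animals cannot be told apart among AT1 cells, and cell type, digestion, gate and library cannot be told apart at P60.

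AT1 cells are flat and very wide and form the thin wall through which gas is exchanged, and their shape depends on the actin cortex under the plasma membrane and on the proteins that tie membrane and actin together. Podoplanin, the product of Pdpn, is a small membrane glycoprotein whose tail binds ezrin and moesin, and it is a standard surface marker of AT1 cells. Rtkn2 encodes rhotekin 2, a relative of rhotekin. Akap5 and Akap2 encode A-kinase anchoring proteins, which hold protein kinase A close to its substrates, Akap5 at the plasma membrane together with calcineurin. Ahnak encodes a giant scaffold protein that binds the S100a10 and annexin A2 complex under the membrane. Lmo7 and Limch1 encode LIM domain proteins, the first at adherens junctions and the second a binding partner of nonmuscle myosin II. Clic5 encodes a chloride intracellular channel family protein that associates with ezrin and cortical actin.

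In GENCODE release M21 on mm10, Pdpn lies on chr4:143267431-143299564 on the minus strand, and the other 7 genes lie on plus strands. These are Rtkn2 on chr10:67979570-68059740, Akap5 on chr12:76324891-76334153, Akap2 on chr4:57717657-57896984, Ahnak on chr19:8989284-9076914, Lmo7 on chr14:101729957-101934710, Limch1 on chr5:66745827-67057158 and Clic5 on chr17:44188584-44280172. All 8 are protein coding. Akap2 lies within Pakap (chr4:57568179-57896982) on the same strand and shares its end, so 3' reads of the pair can be split between them and the count of Akap2 is uncertain. RefSeq promoter entries (GRCm38.p6), running from 250 bases before to 50 bases after a start, matched 6 of the 8 genes with 9 entries. Those of Akap5 and Clic5 are printed because Akap5 had its highest AT1 level at P3 and Clic5 its lowest there, and that of Ahnak because it held matches to 2 of the 3 motifs searched, which are in capitals. They are chr12:76324641-76324940, chr17:44188322-44188621 and chr19:8989034-8989333, all on the plus strand and given 5′ to 3′.
Akap5: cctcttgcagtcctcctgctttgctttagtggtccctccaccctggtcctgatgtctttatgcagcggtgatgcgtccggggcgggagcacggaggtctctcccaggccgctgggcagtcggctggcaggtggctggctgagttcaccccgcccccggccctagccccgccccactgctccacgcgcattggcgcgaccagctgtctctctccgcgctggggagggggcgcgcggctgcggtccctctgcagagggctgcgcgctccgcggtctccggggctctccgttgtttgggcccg
Clic5: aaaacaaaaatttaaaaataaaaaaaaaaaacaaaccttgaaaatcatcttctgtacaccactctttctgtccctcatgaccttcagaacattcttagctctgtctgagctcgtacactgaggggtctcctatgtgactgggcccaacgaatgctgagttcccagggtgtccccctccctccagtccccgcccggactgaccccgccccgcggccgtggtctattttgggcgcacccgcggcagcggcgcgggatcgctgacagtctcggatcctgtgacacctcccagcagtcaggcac
Ahnak: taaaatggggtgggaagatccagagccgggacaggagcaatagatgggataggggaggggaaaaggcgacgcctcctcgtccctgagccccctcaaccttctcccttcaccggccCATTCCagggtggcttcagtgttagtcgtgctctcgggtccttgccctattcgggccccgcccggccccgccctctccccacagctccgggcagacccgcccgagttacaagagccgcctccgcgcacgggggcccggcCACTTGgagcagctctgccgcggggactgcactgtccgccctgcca
The motifs were GGAATG for TEAD factors, CAAGTG for NKX2 factors and TGANTCA for AP-1, each searched on both strands. GGAATG occurred in 14.7% of all 32851 promoter entries, CAAGTG in 13.6% and TGANTCA in 7.81%. Ahnak held 1 match to the TEAD motif and 1 to the NKX2 motif, and 1 of the 3 Limch1 entries held 1 match to the NKX2 motif. No letters of the 3 motifs were found in the other 7 entries. A match describes these letters only, and 3' libraries do not show which start was used.

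The libraries held 3149 cells at P3, 2940 at P15, 1337 at P60 and 2093 AT2 cells, with 26536894, 15401939, 7276458 and 10379705 unique molecular identifiers (UMIs). Between 3 and 15 barcodes were shared by any pair of libraries. Values below are for an AT1-like class of 2445, 2664 and 1111 cells at P3, P15 and P60 and an AT2-like class of 1633 cells, built without the 8 genes. All 19 AT1 markers were above 20 CPM (UMIs per 1000000) in each AT1-like class, and all 17 AT2 markers in the AT2-like class. AT2 markers summed to between 388 and 636 CPM in the AT1-like classes, against 255507 CPM in the AT2-like class. In the AT2-like class 10 of the 19 AT1 markers were above 20 CPM. They summed to 3076 CPM there, of which Ager gave 1483 CPM, against 59199 CPM in the AT1-like class at P60. Endothelial markers summed to between 6.65 and 42.1 CPM and immune markers to between 13.2 and 36.4 CPM in the AT1-like classes. Club cell markers summed to 1101 CPM at P3, 302 at P15 and 1151 at P60, most of it from the secretoglobin gene Scgb1a1 (1021, 274 and 1060 CPM), and to 5635 CPM in the AT2-like class. Ciliated cell markers summed to 965, 1452 and 1195 CPM at P3, P15 and P60, of which Tppp3 gave 943, 1444 and 1185 CPM. Their part in the levels below was not tested. Mesothelial markers summed to 590 CPM at P3, 382 at P15 and 55.8 at P60, with 1 marker above 20 CPM at each age. Ribosomal protein genes took 20.5%, 7.29% and 4.65% of AT1-like UMIs at P3, at P15 and at P60, and Malat1 took 4.31%, 6.67% and 16.3%. Since these shares set the total to which every CPM refers, other scalings and cell selections are named beside a gene where they change its direction or its side of the fold threshold, and the counts of gene lists are given with their range over 12 alternatives where it moves.

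The 8 genes together made up 7089 CPM in AT1-like cells at P3, 10282 at P15 and 10443 at P60, against 320 CPM in AT2-like cells. Of the 8 genes, 6 had their lowest AT1 level at P3, Akap5 had its highest level at P3, and Akap2 had its highest at P60. The fold threshold for counting was 2. At P15 over P3, 1 of the 8 genes was at least 2-fold higher (Rtkn2) and 0 were at least 2-fold lower, where 9.27% of 3291 measured genes were that much higher and 6.78% that much lower. Of the 8 genes 0 were that much higher and 0 lower at P60 over P15, where 3.97% of 3426 genes were higher and 4.61% lower. For P60 over P3, 2 of the 8 were higher (Rtkn2 and Clic5) and 0 lower, where 13.3% of 3462 genes were higher and 9.65% lower. With so few genes, these counts between ages are not read as particular to the set. In P60 AT1-like over P60 AT2-like cells 7 of the 8 were at least 2-fold higher and 0 lower, where 41% of 3499 genes were higher and 13.5% lower. The eighth, Akap2, passed the threshold through a 0 in the AT2 file, set at a floor of 3 counts, that may have been filled in. The median log2 ratio of the 8 genes was 0.56 at P15 over P3, 0.16 at P60 over P15, 0.54 at P60 over P3 and 6.66 in AT1 over AT2 cells, beside 0.14, -0.04, 0.12 and 0.73 for all measured genes. The 6.66 has Akap2 at its floor, and the middle value of the other 7 genes was 5.87, that of Clic5. The 8 genes were chosen with earlier results of these data known, and podoplanin was part of the AT1 gate. The count and the median in AT1 over AT2 cells are therefore not read as a result about the set. The age comparisons share libraries, so their values stand side by side and are not independent.

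The split of all genes depended on the scaling. With TMM factors (trimmed mean of M values, which align the bulk of the genes), 736 genes were higher and 934 lower in AT1 over AT2 cells, where scaling to the total gave 1435 and 472. For P60 over P3 the counts were 274 and 412 with TMM factors, 321 and 530 with the total taken without ribosomal, mitochondrial and haemoglobin genes, 725 and 289 with the total taken without Malat1, and 461 and 334 with the full total. For P60 over P15 they were 83 and 207 with TMM factors, 257 and 115 without Malat1, and 136 and 158 with the full total. At P15 over P3 they were 201 and 342 without ribosomal, mitochondrial and haemoglobin genes, and 305 and 223 with the full total. TMM factors moved log2 ratios by -0.07 at P15 over P3, -0.14 at P60 over P15, -0.21 at P60 over P3 and -0.70 in AT1 over AT2 cells. Counts of list genes given with each gene refer to the full total and move with these shifts. In AT1 over AT2 cells they stand beside 41% of 3499 measured genes higher and 13.5% lower. Between ages they stand beside the shares of all genes given above. None of these counts is read as particular to its list.

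**Figure D1:**
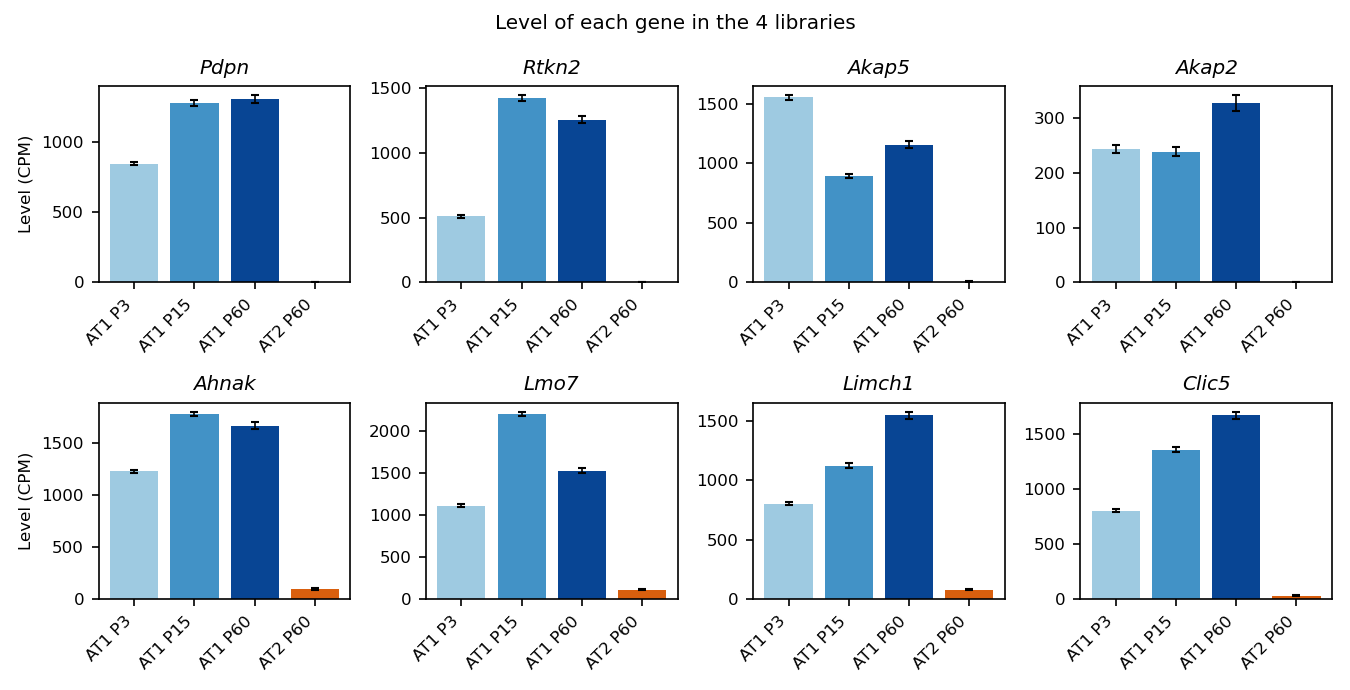
Level of each gene in UMIs per 1000000 (CPM, linear axis from 0) in the AT1-like classes at P3, P15 and P60 and in the AT2-like class at P60, 1 library each, with exact Poisson 95% intervals as error bars. The genes other than Akap2, which is listed at 0 in the AT2 library, are far higher in the AT1 libraries than in the AT2 library, Akap5 is highest at P3 with 1551 CPM, and Limch1 and Clic5 are higher at each later age.

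Pdpn was measured at 846 CPM at P3 (95% Poisson interval 833 to 859), 1277 at P15 (1258 to 1296) and 1304 at P60 (1276 to 1332), against 1.66 CPM in AT2-like cells (0.882 to 2.83). Its protein was part of the AT1 gate, so cells with little podoplanin at the surface could not enter the AT1 libraries. The ratio was 1.51 at P15 over P3 (1.48 to 1.54) and 1.54 at P60 over P3 (1.501 to 1.58). Between the later ages the ratio was 1.02 at P60 over P15 (0.995 to 1.05), within counting error, and its log2 ranged from -0.11 to 0.19 over the alternatives, so no direction can be given.

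Of 17 genes listed for proteins that link the membrane to actin, 10 were measured between AT1 ages. At P15 over P3, 2 were at least 2-fold higher and 0 lower. They were Slc9a3r2, an ezrin-binding scaffold, with 315 CPM at P15 and 150 CPM at P3, and Epb41l4a, a band 4.1 family gene, with 103 CPM at P15 and 51.3 CPM at P3. Epb41l4a was close to the threshold with a ratio of 2.02 (1.86 to 2.19), and over 12 alternatives the counts ran from 0 to 2 higher and 0 to 1 lower. The count at P60 over P3 was 0 higher and 1 lower. The higher count ran up to 3 without Malat1 in the total. The lower gene was Ezr, which encodes ezrin, at 177 CPM at P60 and 592 CPM at P3, a 3.35-fold lower level at P60 (3.15 to 3.56). Between the cell types 8 of 11 measured genes were higher in AT1 cells and 1 lower, with 7 to 8 and 1 to 2 over the alternatives. The 8 include Epb41l3, with 512 UMIs in AT1 cells. Like Akap2 it is listed at 0 in AT2 cells, and it was counted through the floor of 3 counts. Msn, which encodes the ezrin relative moesin, was at 1364 CPM in AT1 cells and 72.5 CPM in AT2 cells, a ratio of 18.8 (17.3 to 20.5). Cd44, a hyaluronan receptor that binds podoplanin, was at 0.765 CPM in AT1 cells and 93.9 CPM in AT2 cells. Ezr was at 177 CPM in both classes, and its direction moves with the scaling shifts given above.

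Rtkn2 was measured at 510 CPM at P3 (500 to 520), 1423 at P15 (1403 to 1443) and 1256 at P60 (1229 to 1283), against 0.764 CPM in AT2-like cells (0.280 to 1.66). The P3 library was low and both later ages were above it. The ratio of 2.79 at P15 over P3 (2.72 to 2.86) was the largest of the 8 genes in that comparison, and the ratio at P60 over P3 was 2.46 (2.39 to 2.54). The ratio of P60 over P15 was 0.883 (0.860 to 0.906), below 1 under all 12 alternatives that re-estimate the ratios. Its log2 ranged from -0.32 with TMM factors to -0.02 without Malat1 in the total, where little difference was left. Rtkn2 was at least 2-fold higher at P15 and at P60 than at P3 under all of them.

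Rtkn, the rhotekin gene itself, was lower in AT1 cells, with 27.8 CPM against 70.8 CPM in AT2 cells, the opposite direction to Rtkn2. Among the septins, whose filaments rhotekin binds, 2 of 11 were measured between AT1 ages and neither was 2-fold apart. Both were higher in AT1 cells, Sept2 with 162 CPM against 58.1 CPM in AT2 cells and Sept7 with 204 CPM against 93.2 CPM in AT2 cells, but 0 were 2-fold higher with TMM factors or median of ratios. At Leiden resolution 0.25, which gives coarser clusters and another class, 1 septin was 2-fold higher at P60 over both earlier ages. That class held 617 AT1-like cells at P60 in place of 1111.

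Akap5 was measured at 1551 CPM at P3 (1533 to 1568), 891 at P15 (875 to 907) and 1156 at P60 (1130 to 1183), against 6.62 CPM in AT2-like cells (4.95 to 8.69). It was the only one of the 8 genes whose level was highest at P3 and lowest at P15. Its level at P15 was 1.74-fold lower than at P3 (1.71 to 1.78), and at P60 1.34-fold lower than at P3 (1.31 to 1.38). At P60 over P15 the ratio was 1.298 (1.26 to 1.34). Without ribosomal, mitochondrial and haemoglobin genes in the total, the log2 ratio at P15 over P3 was -1.01 and Akap5 passed the threshold as lower. The log2 ratio at P15 over P3 stayed between -1.01 and -0.75 over 12 alternatives. The listed immediate early genes summed to 10003 CPM at P3, 5873 at P15 and 4387 at P60. Over the 5 clusters of the AT1-like class at P3, Akap5 ranged from 1476 to 1772 CPM, lowest in the cluster led by immediate early genes. Any part of the immediate early response in the level of Akap5 was not tested.

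Akap2 was measured at 243 CPM at P3 (236 to 250), 238 at P15 (230 to 246) and 327 at P60 (313 to 341), and was listed at 0 in AT2 cells. The levels at P3 and P15 did not differ beyond counting error, with a ratio of 0.978 (0.935 to 1.02) whose log2 ranged from -0.25 to 0.02 over the alternatives. At P60 over P15 the ratio was 1.37 (1.2998 to 1.45), and at P60 over P3 it was 1.34 (1.28 to 1.41). The overlapping Pakap was counted at 1.64 CPM at P3, 3.32 at P15 and 24.5 at P60. The AT2 file lists 1068 genes at 0 in every cell, while no other gene was found in fewer than 5 cells, so zeros there may have been filled in when gene lists were merged and no fold is given for Akap2.

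Of 22 genes for other anchoring proteins, kinase A subunits and their partners, 11 were measured at P60 over P15 and 0 were 2-fold apart, with up to 1 in either direction over the alternatives. For P60 over P3, 1 of 11 was higher and 0 lower, namely the kinase A regulatory subunit gene Prkar2a with 191 CPM at P60 and 69.4 CPM at P3, and 4 were higher without Malat1 in the total. Of 12 genes measured in AT1 and AT2 cells, 7 were higher and 1 lower in AT1 cells, where the alternatives gave 3 to 9 and 0 to 1. Ppp3ca, a gene for a catalytic subunit of calcineurin, was at 866 CPM in AT1 cells and 126 CPM in AT2 cells. Ppp3cb, the gene for another, was at 31.5 CPM in AT1 cells and 36.0 CPM in AT2 cells. Akap7 was lower in AT1 cells, with 8.26 CPM against 65.7 CPM in AT2 cells.

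Ahnak was measured at 1223 CPM at P3 (1208 to 1239), 1773 at P15 (1751 to 1795) and 1664 at P60 (1633 to 1696), against 96.4 CPM in AT2-like cells (89.7 to 104). The ratio was 1.45 at P15 over P3 (1.42 to 1.48) and 1.36 at P60 over P3 (1.33 to 1.39). The ratio at P60 over P15 was 0.939 (0.918 to 0.960), but its log2 ranged from -0.23 to 0.07 over the alternatives and it took a positive sign without Malat1 in the total. Among 8 listed genes, 7 partners and the relative Ahnak2, 5 were measured between AT1 ages. At P15 over P3, 1 was higher and 0 lower, namely Ahnak2 with 109 CPM at P15 and 26.1 CPM at P3, a ratio of 4.17 (3.77 to 4.62). Between P60 and P15, 0 were higher and 1 lower at P60 (2 lower at Leiden resolution 0.25), namely S100a10, which encodes the S100 partner of annexin A2, with 171 CPM at P60 and 473 CPM at P15. Compared with P3, 2 were higher at P60 (Ahnak2 and the membrane repair gene Myof) and 1 lower (S100a10, with 402 CPM at P3), and the higher count was 1 with TMM factors, with median of ratios and without ribosomal, mitochondrial and haemoglobin genes. Of these 5, 4 were higher and 0 lower in AT1 than in AT2 cells (2 and 1 with TMM factors), among them Anxa2, the annexin A2 gene, with 1081 CPM in AT1 cells and 228 CPM in AT2 cells.

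Lmo7 was measured at 1113 CPM at P3 (1098 to 1128), 2205 at P15 (2180 to 2230) and 1529 at P60 (1499 to 1559), against 108 CPM in AT2-like cells (101 to 115). Its P15 level was above both other ages. The ratio at P15 over P3 was 1.98 (1.95 to 2.02), just under the threshold, and it was past the threshold without Malat1 in the total, with each cell weighted the same and without cells holding 3 or more AT2 markers. At P60 it was 1.44-fold lower than at P15 (1.41 to 1.48) and 1.37-fold higher than at P3 (1.34 to 1.41). Limch1 was measured at 803 CPM at P3 (790 to 815), 1122 at P15 (1104 to 1140) and 1543 at P60 (1513 to 1574), against 78.3 CPM in AT2-like cells (72.3 to 84.8). The ratio was 1.40 at P15 over P3 (1.37 to 1.43), 1.38 at P60 over P15 (1.34 to 1.41) and 1.92 at P60 over P3 (1.87 to 1.97). The log2 ratio at P60 over P3 was 0.94 and ranged from 0.69 to 1.14 over the alternatives. Limch1 was past the threshold without Malat1 in the total, with all cells of each library and at Leiden resolution 0.25, with its smaller class at P60.

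Of 28 genes for LIM domain and adhesion scaffold proteins, 17 were measured at P15 over P3, where 3 were higher and 0 lower (3 to 4 and 0 to 1 over the alternatives). Lims2, which encodes a LIM partner of integrin-linked kinase, was at 321 CPM at P15 and 82.0 CPM at P3. Pdlim2, a PDZ and LIM protein, was at 640 CPM at P15 and 219 CPM at P3, and Actn1, an alpha-actinin that crosslinks actin, at 227 CPM at P15 and 79.2 CPM at P3. Of 18 genes 0 were apart at P60 over P15. For P60 over P3, 6 of 18 were higher and 1 lower (2 to 7 and 0 to 1 over the alternatives), where the lower gene was the focal adhesion gene Tes with 69.6 CPM at P60 and 147 CPM at P3. Of the same 18, 12 were higher and 1 lower in AT1 than in AT2 cells, with 9 to 14 and 0 to 2 over the alternatives. Lims2 had 1492 UMIs in AT1 cells and 3 in AT2 cells, a ratio of 597 (204 to 2900), and Ablim3 had 360 UMIs in AT1 cells and 4 in AT2 cells. Pdlim1 was lower in AT1 cells, close to the threshold, with 58.6 CPM against 122 CPM in AT2 cells. Among 14 genes for nonmuscle myosin II and its regulators, 10 were measured between AT1 ages. At P15 over P3, 1 was higher and 0 lower, namely the regulatory light chain gene Myl12b with 1117 CPM at P15 and 517 CPM at P3, and the higher count ran from 0 without ribosomal, mitochondrial and haemoglobin genes to 2 without Malat1. At P60 over P3, 0 were higher and 1 lower, namely the tropomyosin gene Tpm4 with 124 CPM at P60 and 322 CPM at P3 (1 to 2 lower over the alternatives). Of 11 measured in both cell types, 8 were higher and 1 lower in AT1 cells (5 to 9 higher over the alternatives), where the lower gene was Mylk, the myosin light chain kinase gene, with 0.765 CPM in AT1 cells and 100.4 CPM in AT2 cells.

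Clic5 was measured at 801 CPM at P3 (788 to 813), 1354 at P15 (1335 to 1374) and 1665 at P60 (1634 to 1697), against 28.4 CPM in AT2-like cells (24.8 to 32.4). Like Limch1, it was higher at each later age. The ratio was 1.69 at P15 over P3 (1.66 to 1.73), 1.23 at P60 over P15 (1.20 to 1.26) and 2.08 at P60 over P3 (2.03 to 2.13). At P60 over P3 Clic5 was under 2-fold with TMM factors, with median of ratios, without ribosomal, mitochondrial and haemoglobin genes in the total and without clusters led by immediate early or nuclear genes, and its log2 ratio ranged from 0.80 to 1.25. Of the 4 other chloride intracellular channel genes, 2 passed the CPM minimum. Clic3 had the same order of levels as Clic5, with 1542 CPM at P3, 2099 at P15 and 2290 at P60, against 198 CPM in AT2 cells, a ratio of 11.6 at P60 (10.97 to 12.2). Clic1 had another order and was at 178 CPM at P3, 189 at P15 and 24.6 at P60, a 7.69-fold lower level at P60 than at P15 (6.56 to 9.08), and at 145 CPM in AT2 cells.

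The spectrin and ankyrin cortex list had 12 genes, of which 7 were measured between AT1 ages. At P15 over P3, 1 was higher (Sptan1, the alpha spectrin gene, with 355 CPM at P15 and 162 CPM at P3) and 1 was lower (Actg1, the gamma actin gene, with 2119 CPM at P15 and 4792 CPM at P3), and without ribosomal, mitochondrial and haemoglobin genes 0 were higher. Actg1 was also the 1 lower gene at P60 over P3, with 1217 CPM at P60, and 0 were higher. Between P60 and P15, 0 were apart (1 lower at Leiden resolution 0.25). In AT1 over AT2 cells 6 of 8 were higher and 1 lower, and 4 were higher with TMM factors. Actb, the beta actin gene, was at 11987 CPM in AT1 cells and 2463 CPM in AT2 cells, and Sptan1 at 282 CPM in AT1 cells and 26.9 CPM in AT2 cells. Ank3, which encodes the lateral membrane ankyrin, was the lower gene, with 3.98 CPM in AT1 cells and 390 CPM in AT2 cells.

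**Figure D2:**
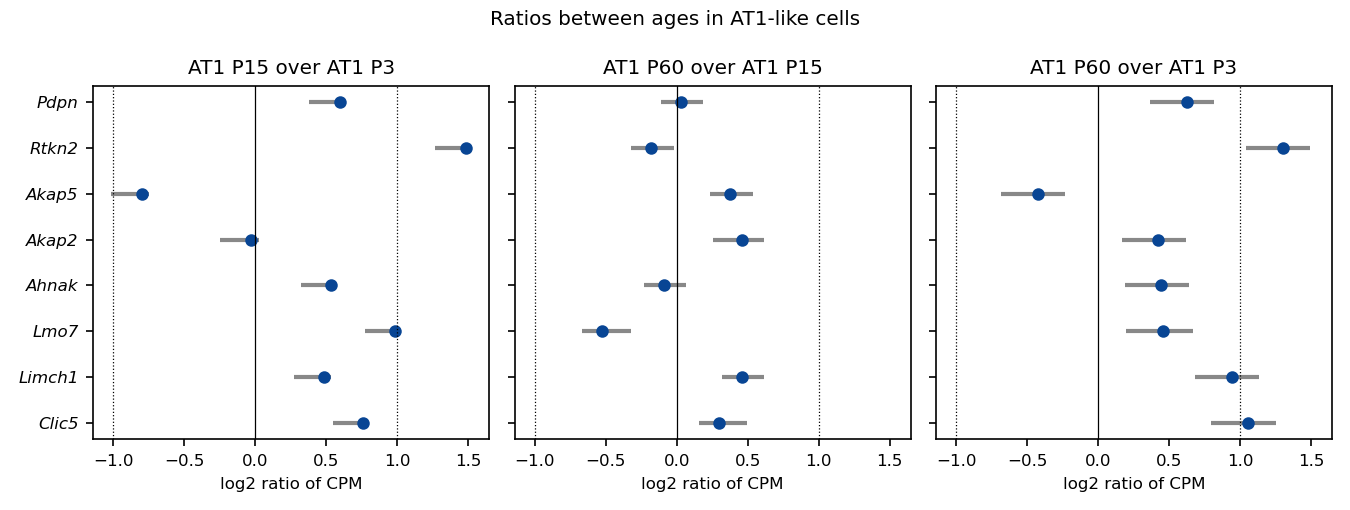
Log2 ratios of CPM between ages in AT1-like cells for each gene, 1 library per age. Points are the values as reported, bars the lowest and highest value over 12 alternatives, and dotted lines mark a 2-fold difference. Rtkn2 lies to the right of the 2-fold line at P15 over P3 and at P60 over P3, and Akap5 lies left of 0 in both.

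Between the adult cell types the ratios of the genes ran from 14.2 to 1643. Rtkn2 had 8209 UMIs in AT1-like cells and 6 in AT2-like cells, a ratio of 1643 (755 to 4479). Pdpn had 8521 UMIs in AT1-like cells and 13 in AT2-like cells, a ratio of 787 (460 to 1479). Akap5 had a ratio of 175 (133 to 234) and Clic5 one of 58.6 (51.3 to 67.2). Limch1 had a ratio of 19.7 (18.2 to 21.4), Ahnak of 17.3 (16.0 to 18.6) and Lmo7 of 14.2 (13.2 to 15.2). For AT1 markers outside the set, the ratio was 405 for Hopx, 714 for Cav1, 14.9 for Ager and 4.48 for Cldn18. Hopx-RFP and podoplanin were part of the AT1 gate alone, so the ratios of Hopx and Pdpn are not independent of the sort. In the 22 immune-marked cells of the AT2 library, with a median of 2364.5 UMIs, Lmo7 and Clic5 had 0 UMIs, Limch1 had 1 and Ahnak had 13. In the AT2-like class the median was 4724 UMIs, and Lmo7 had a UMI in 38.6% of the cells. AT1 markers outside the set were also found in the AT2-like class, with 3076 CPM in sum. The part of free RNA or mixed droplets in the AT2 counts was not tested.

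A cluster of 409 AT2-library cells, 19.5% of that library, was left out of the AT2-like class, which lowers AT1 transcripts in the class by construction. Its 10 leading genes, ranked against the rest of the library, held the AT1 marker Timp3, the club cell marker Scgb3a2, the pericyte or smooth muscle marker Acta2 and no AT2 marker. Its AT2 markers summed to 252975 CPM, beside a median of 254045 CPM over the cells of the library, so its AT2 marker level was that of the library. This cluster held 45 of the 58 Pdpn UMIs of the library, in 9 cells, and 21 of the 27 Rtkn2 UMIs, in 8 cells. With it kept, the ratio was 477 for Rtkn2 (328 to 725), 231 for Pdpn (178 to 304), 136 for Akap5 (110 to 171) and 49.4 for Clic5 (44.4 to 55.1). For Limch1, Ahnak and Lmo7 it was 19.9, 15.6 and 14.0.

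**Figure D3:**
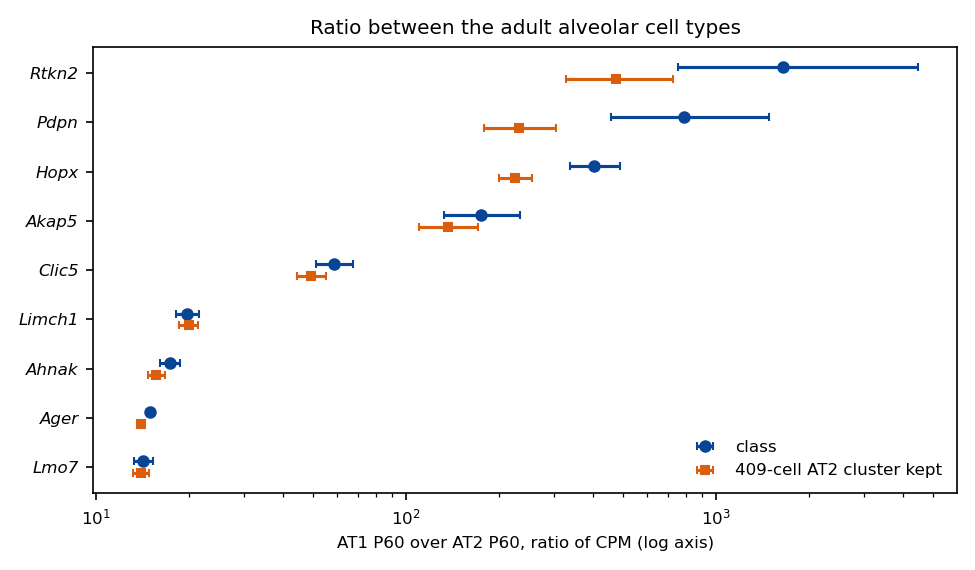
Ratio of CPM in AT1 P60 over AT2 P60 cells (log axis) with exact conditional Poisson 95% intervals, for 7 of the 8 genes and the AT1 markers Hopx and Ager, in the class (circles) and with the 409-cell AT2 cluster kept (squares). Akap2 is not drawn because it is listed at 0 in AT2 cells. Hopx-RFP and podoplanin were part of the AT1 gate. Rtkn2 and Pdpn stand at 1643 and 787 in the class and lower with the cluster kept, while Lmo7, Ahnak and Limch1 stay between 14 and 20.

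Most AT1-like cells held UMIs of the 8 genes. Without thinning, a UMI of Ahnak, Lmo7, Limch1 and Clic5 was found in between 96.1% and 99.6% of AT1-like cells at each age. After each cell was thinned to 2000 UMIs, which left out 0 cells at P3, 210 at P15, 68 at P60 and 41 AT2-like cells, Rtkn2 was found in 62.5% of cells at P3 (Clopper-Pearson 60.5% to 64.4%), 92.1% at P15 (91.0% to 93.1%) and 89.7% at P60 (87.7% to 91.5%). Before thinning these shares were 94.8%, 97.9% and 96.5%. Akap5 was found in 93.9%, 81.2% and 87.0% of thinned cells, and before thinning in 99.7%, 94.4% and 97.0%. Akap2 was found in 39.5%, 35.8% and 44.5% of thinned cells, and before thinning in 78.2%, 58.3% and 71.6%. In thinned AT2-like cells Pdpn was found in 0.251% of 1592 cells, Akap5 in 1.70%, Clic5 in 5.40%, Limch1 in 14.5%, Ahnak in 18.3% and Lmo7 in 18.7%, and before thinning in 0.796%, 3.00%, 12.2%, 28.6%, 34.0% and 38.6%. At P15 the variance of Lmo7 over thinned cells was 1.62 times its mean, with up to 22 UMIs in a cell. The other 7 genes had between 1.15 and 1.304 times the mean. Lmo7 also had the highest mean, 4.53 UMIs per thinned cell, against 0.478 for Akap2 and 3.58 for Ahnak. Variance over mean can rise with the mean, so these values do not show that Lmo7 varied more between cells relative to its level.

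**Figure D4:**
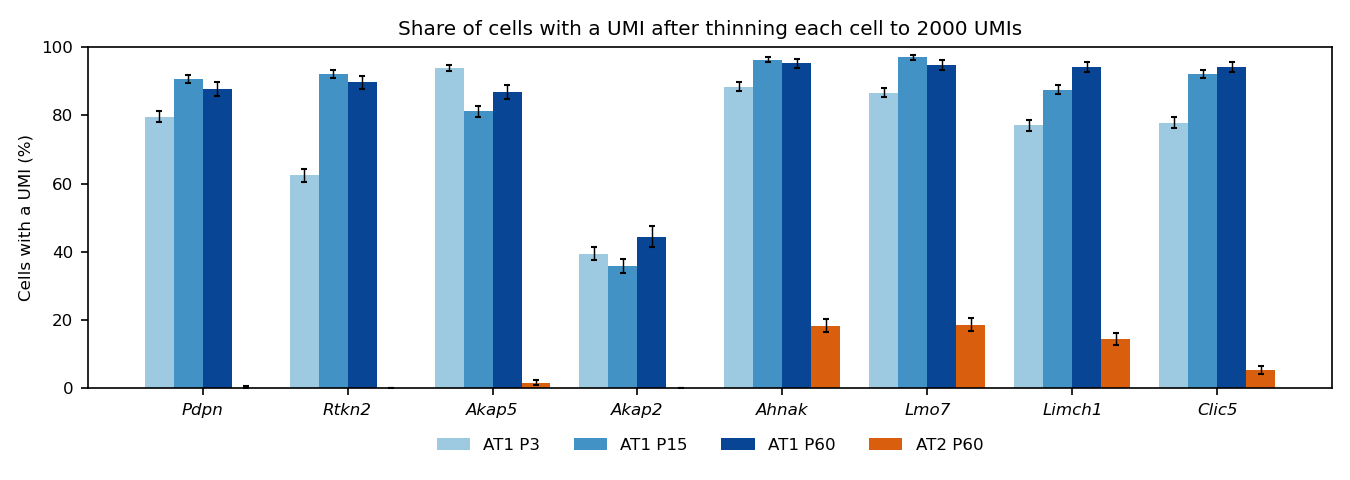
Share of class cells with at least 1 UMI of each gene after each cell was thinned to 2000 UMIs, with Clopper-Pearson 95% intervals, by age in AT1-like cells and at P60 in AT2-like cells, 1 library each. Rtkn2 has the largest gap between P3 (62.5%) and the later ages, and Akap2 is found in under 45% of cells in every library.

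Within a library the level also varied between clusters of the AT1-like class. At P3 the 5 clusters differed little, from 1.04 times for Akap2 to 1.42 times for Pdpn between the lowest and the highest cluster. At P15 Lmo7 ranged over 7 clusters from 1654 CPM in a cluster led by tubulin genes to 2999 CPM in a cluster led by Neat1, a nuclear RNA, whose cells had a median of 3600 UMIs against 5716 in the tubulin cluster. Limch1 ranged there from 858 CPM in the tubulin cluster to 1487 CPM in a cluster led by Lars2 and Neat1. Akap2 was lowest in the tubulin cluster, at 152 CPM (highest 293 CPM). At P60 the 107 cells of a cluster led by Lars2 and Neat1, with a median of 2132 UMIs, had 156 CPM of Akap2 and 826 CPM of Pdpn, against 356 CPM and 1349 CPM in the largest cluster. The same cells had 2150 CPM of Clic5, against 1513 CPM in the largest cluster. The part of cell quality in these differences was not tested.

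**Figure D5:**
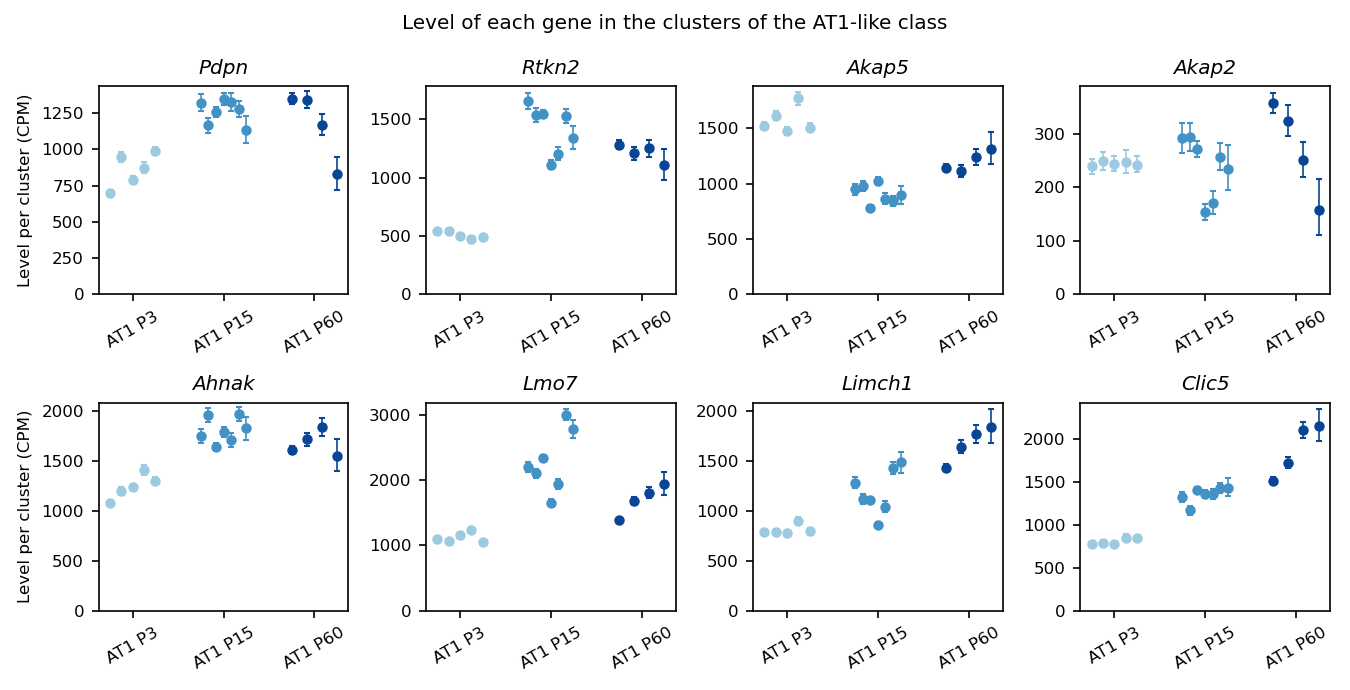
Level in CPM (linear axis from 0) of each gene in each cluster of the AT1-like class, with exact Poisson 95% intervals, at P3 (5 clusters), P15 (7) and P60 (4), 1 library each. Clusters are in their numbered order within an age. The P3 clusters of Rtkn2 all lie at or below 540.1 CPM and the P15 and P60 clusters at or above 1106 CPM, and the P15 clusters of Lmo7 spread from 1654 to 2999 CPM.

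Clusters of the AT1 libraries left out of the AT1-like class held some of these genes beyond the level of AT1 markers in them. In 142 club-like and ciliated-like cells at P3, the 19 AT1 markers summed to 16.5% of their level in the AT1-like class. Lmo7 was there at 528 CPM, 47.4% of its class level, while Akap2 was at 3.14% and Akap5 at 5.04%. In 110 fibroblast-like cells at P15 the AT1 markers were at 9.69% of their class level. Limch1 was there at 772 CPM or 68.8% of its class level, with a UMI in 78 of the cells, and Ahnak at 24.3%, while Clic5 was at 6.08%. In 42 endothelial-like cells at P15, where the AT1 markers were at 23.9%, Clic5 was at 517 CPM or 38.2% of its class level and Rtkn2 at 11.5%. In 54 immune-like cells at P15, with the markers at 15.6%, the 8 genes lay between 6.77% and 22.9%. At P60 a platelet-marked cluster of 113 cells had Ahnak at 2442 CPM or 147% of the class level and Akap2 at 50.5%. Its AT1 markers were at 96.2% of the class level, so these values cannot be taken as levels in another cell type. These clusters passed the same sort and some hold under 60 cells, and how far mixed droplets contributed was not tested.

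The genes nearest to each of the 8 in pattern were found by the Euclidean distance of log2(CPM + 1), centred over the 4 libraries, among 3649 genes. Since the AT1 to AT2 difference is the widest, it weighs most in this distance. Lmo7 was nearest to Ager (distance 0.16), the AT1 marker receptor, which was at 16575 CPM at P3, 35042 at P15 and 22169 at P60, against 1483 CPM in AT2 cells. Clic5 was nearest to the caveolin gene Cav2 (0.17), with 433, 813 and 1005 CPM at P3, P15 and P60 and 17.8 CPM in AT2 cells. Rtkn2 was nearest to Igfbp2 (0.23), with 674, 1874 and 1986 CPM at the 3 ages and 1.66 CPM in AT2 cells. Limch1 had Tead1 (0.14), which encodes a TEAD transcription factor, and Ahnak had Egfr (0.10), the epidermal growth factor receptor gene, among their 3 nearest. These neighbours depended on the pseudocount. With 10 in place of 1, 9 of the 24 nearest genes (3 for each of the 8) were again among the nearest 3, including Ager, Cav2, Igfbp2 and Tead1 but not Egfr. Pdpn, Akap5 and Akap2 had the semaphorin genes Sema3e or Sema3a among their nearest, which are listed at 0 in AT2 cells, and of these only Sema3a for Akap2 was again among the nearest with a pseudocount of 10.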

How the data were processed

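Lung epithelial cells from 4 sorted libraries, 1 per group, were sequenced with the 10x single cell 3' protocol, per the labels' protocols. The submitters' processing notes name Cell Ranger 1.3.1, Seurat 2.0.0 and the builds mm10 and hg19; the role of each build is not stated there. The deposited values are natural logs of 1 plus the UMIs of a gene per 10000 UMIs of the cell, as the cell sums of 10000 in the deposited files show. Whole UMI counts were recovered from them (100% of values were whole within 0.05 UMI) and summed over cells, and levels are UMIs per 1000000 (CPM).

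The members and the gene lists were chosen with earlier results of these data known. Each library was clustered without the 8 members (Scanpy 1.11.5, 2000 variable genes, 20 principal components, 15 neighbours, Leiden resolution 0.5). A class was built from the clusters whose AT1 or AT2 markers reached 50% of the library's median, with at least 3 of them in 25% of cells, and with no more markers of another cell type than of their own among their 10 leading genes. These thresholds were set after the data had been seen. The last threshold kept out clusters led by 1 marker of another cell type, or of each of several. They held 12.3% of the P3 cells and 19.5% of the AT2 cells, and 0 cells at P15 and P60. Keeping these clusters is an alternative chosen after seeing the data. The last threshold alone also kept out a cluster of 41 cells at P3 with 3 immune markers among its leading genes. At P60 it kept out a cluster of 113 cells with 3 platelet markers among them. Single cells were set aside from 3 markers of endothelial, lymphatic, fibroblast, pericyte, platelet or immune cells on, from 4 of mesothelial cells or from 5 of airway cells, and no doublet caller was run, so doublets of like cells may remain.

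With 1 library per group there is no replicate, no test and no p-value. Ratios carry exact conditional Poisson 95% intervals, levels exact Poisson intervals and shares of cells Clopper-Pearson intervals. They describe counting error alone. Genes with 50 CPM and 30 UMIs in the higher library were counted as apart from 2-fold on, and a library with 0 UMIs was set at a floor of 3 counts per library for these counts and for medians alone. The calculation was tested on simulated counts. For shares of cells with a UMI, each cell was also thinned to 2000 UMIs. Of each gene list, up to 3 genes per direction and comparison were to be named by ratio among those at least 2-fold apart at 20 CPM and 30 UMIs, and for each member the 3 genes nearest in pattern. Alternatives covered the cells summed, the scaling (trimmed mean of M values, TMM, and median of ratios among them), cell weights, thinning, mixed cells, clusters, resolution, the fold threshold and the CPM minimum. Some genes and a gene list are not reported here.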

Additional observations from a re-analysis of the deposited data

How the results depend on the processing

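The count of members at least 2-fold higher at P15 over P3 (1) became 2 without Malat1 in the total, with each cell weighted the same and without cells holding 3 or more AT2 markers, and 4 at a 1.5-fold threshold. The count of lower members there (0) became 1 without ribosomal, mitochondrial and haemoglobin genes in the total and 1 at 1.5-fold. At P60 over P3 the count of higher members (2) became 1 with TMM factors, with median of ratios, without ribosomal, mitochondrial and haemoglobin genes and without clusters led by immediate early or nuclear genes, 3 without Malat1, with all cells of each library and at Leiden resolution 0.25, and 4 at 1.5-fold. The counts at P60 over P15 (0 and 0) and in AT1 over AT2 cells (8 with Akap2 at its floor, and 0) were the same under all of these. Leiden resolution 0.25 left 617 AT1-like cells at P60 in place of 1111. A cluster of 526 cells was left out there through 1 lymphatic endothelial marker. Of the 617 cells, 344 were in a cluster led by Lars2 and Neat1, with a median of 3102.5 UMIs. In AT1 over AT2 cells, this resolution left 588 AT2-like cells and log2 ratios of 6.23 for Pdpn, 7.25 for Rtkn2 and 6.33 for Akap5, where the values reported are 9.62, 10.68 and 7.45. Without cells holding 3 or more markers of the other type, 99 AT2-like cells were left and Clic5 had 5.05 instead of 5.87. Median of ratios gave 3.41 instead of 4.11 for Ahnak, 3.13 instead of 3.82 for Lmo7 and 3.60 instead of 4.30 for Limch1. With no minimum CPM the counts of all higher and lower genes were 761 and 1061 at P15 over P3, 784 and 456 at P60 over P15, 1395 and 925 at P60 over P3, and 3911 and 1010 in AT1 over AT2 cells, and the cause of these moves was not tested. No paired analysis was possible because each group has 1 library.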
